A study of Homo sapiens with 6 samples.

Results

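The cyclin-dependent kinase inhibitor genes of the CDKN family were followed in RNA from MDA-MB-231 cells, a human triple-negative breast cancer (TNBC) cell line with mesenchymal features. The family was taken by gene symbol as 8 of the 58735 genes in the deposited tables, namely CDKN1A, CDKN1B, CDKN1C, CDKN2A, CDKN2B, CDKN2C, CDKN2D and CDKN3. The cells were given either vehicle or SCH, an aqueous extract of Salvia chinensis Benth, at 100 mg/l, and RNA was taken after 24 h, with 3 samples in each group. The comparison asks which genes of this one line respond to the extract. No other line, dose or time was sequenced, and both groups carry whatever alterations the line has.

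CDK inhibitors are proteins that bind cyclin-dependent kinases or their cyclin complexes and hold back progress through the cell cycle. The Cip/Kip proteins p21 (CDKN1A), p27 (CDKN1B) and p57 (CDKN1C) bind complexes of several CDKs with cyclins, whereas the INK4 proteins p16 (CDKN2A), p15 (CDKN2B), p18 (CDKN2C) and p19 (CDKN2D) bind CDK4 and CDK6 alone and keep the D-type cyclins off them. CDKN3 is named with the family but encodes a phosphatase, KAP, which removes the activating phosphate from CDK2 and is itself made mostly by dividing cells.

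The labelled line was checked against its markers by FPKM, a measure of fragments per kilobase of gene length at a common sequencing depth. The mesenchymal and basal markers VIM, CD44 and AXL averaged 263, 96.6 and 293 FPKM in the vehicle-treated samples. The luminal and epithelial markers ESR1 and CDH1 averaged 0.015 and 0.040 FPKM, and PGR had no count in any vehicle-treated sample, whereas ERBB2, EPCAM and GATA3 of the same list averaged 6.67, 6.53 and 3.84 FPKM. The summed level of the 6 line markers was between 5302 and 5381 CPM (counts at one common library size) with vehicle and between 3926 and 3969 with SCH, with 4 of them lowered, 1 raised and CD44 not past the test. Of 8 markers of luminal, epithelial, immune or endothelial cells, 5 had enough counts to test, of which ERBB2 rose and GATA3, EPCAM and PTPRC fell. Their summed level was between 104 and 106 CPM with vehicle and between 104 and 116 with SCH, and ERBB2 was the most abundant. PTPRC, the leukocyte marker, averaged 1.99 CPM with vehicle and 0.290 with SCH. The part of these marker differences in the values below was not tested.

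The libraries held 20291379, 18714240 and 18334857 counts with vehicle and 16836369, 17979434 and 18414924 with SCH. Of the 8 genes, 6 passed the filter on low counts, and CDKN2A and CDKN2B had no count in any sample. In edgeR's quasi-likelihood test over 14736 genes, with an adjusted p under 0.05 (Benjamini-Hochberg) as the threshold, CDKN1A, CDKN1C and CDKN2D rose and CDKN3 fell, while CDKN1B and CDKN2C did not pass. These are 4 of 6 tested members, where 58.7% of all tested genes changed, so their number is near the background. Raised were 3 of 6 members against 29.3% of all genes, and lowered was 1 of 6 against 29.4%. Against a fold of at least 1.5 (edgeR's glmTreat), CDKN1A, CDKN1C and CDKN3 passed, where 10.4% of all tested genes did. CDKN1A alone rose by at least 1 on the log2 scale, as did 3.89% of all tested genes. The median over the 6 tested members was a log2 fold change of 0.10, beside -0.0034 over all tested genes. The plot of CPM by sample shows the 8 genes side by side.

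**Figure D1:**
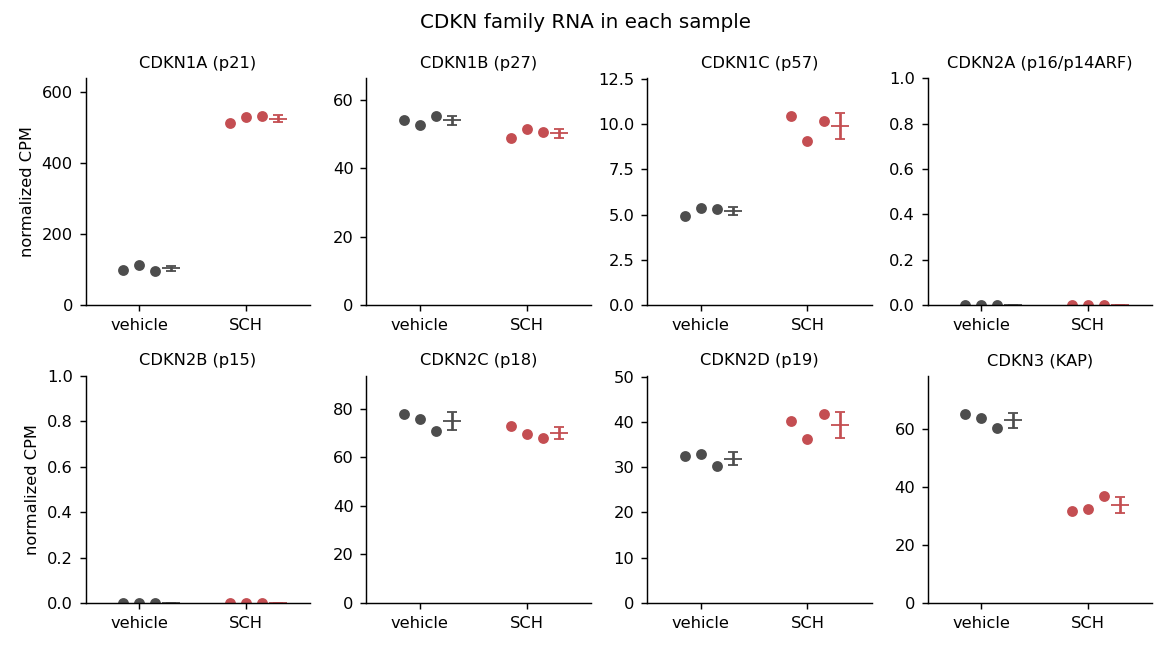
CPM after TMM normalization (y axis, linear from 0, its range set for each gene) of the 8 CDKN genes in the 3 vehicle-treated (grey) and 3 SCH-treated (red) samples. Points are samples, and the bar beside them is the mean ± SD. CDKN1A, CDKN1C and CDKN2D lie higher and CDKN3 lower in every SCH-treated sample, and CDKN2A and CDKN2B are at 0 throughout.

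CDKN1A encodes p21, which inhibits CDK2 and CDK1 complexes and binds PCNA, the sliding clamp of DNA replication. The gene (ENSG00000124762) lies on the plus strand at chr6:36676460-36687339 (GRCh38). It had 1955, 2018 and 1736 counts in the vehicle-treated samples and 8947, 9886 and 10116 in the SCH-treated samples. After normalization this was 100.2, 112 and 97.6 CPM with vehicle and 513, 531 and 532 CPM with SCH. All SCH-treated samples stood far above all vehicle-treated ones. The rise was 5.08-fold (95% confidence interval 4.70 to 5.49), a log2 fold change of 2.34 with an SE of 0.055 (edgeR adjusted p = 1.5e-19). Its absolute log2 fold change exceeded that of 99.3% of the tested genes. In RNA of whole cultures, more RNA per cell and more cells that make the RNA cannot be told apart. Of the exonic bases of CDKN1A, 4.79% are shared with the antisense transcript DINOL, which had no count with vehicle and 1, 0 and 2 counts with SCH.

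The region before a RefSeq start of CDKN1A, at chr6:36678714, is shown because this gene had the greatest rise of the family. That start lies inside the gene span given above and not at its first base. The 250 bases before each listed RefSeq start (GRCh38.p14) were obtained for 7 of the 8 genes, and no start was matched here for CDKN1C. They were searched on both strands for 5 short motifs. The GC box, read by Sp1-type factors, was spelled GGGCGG. The CCAAT box and the TATA box were spelled as CCAAT and, for the latter, TATAAA. The core of the cell cycle homology region was spelled TTTGAA. The E2F-type motif was spelled GCGGGAA, and it can overlap a GC box. The 2 sequences below are the longest stretches of those 250 bases outside annotated exons, on the plus strand, at chr6:36678560-36678657 for CDKN1A and chr14:54396757-54396848 for CDKN3. Capitals mark any of these motifs.
CDKN1A: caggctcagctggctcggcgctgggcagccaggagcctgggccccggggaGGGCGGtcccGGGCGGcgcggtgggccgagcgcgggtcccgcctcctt
CDKN3: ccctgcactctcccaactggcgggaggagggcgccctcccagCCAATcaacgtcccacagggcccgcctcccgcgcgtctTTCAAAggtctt
The stretch of CDKN1A held 2 GC boxes, and its full 250 bases held 4 and none of the other motifs. That of CDKN3 held a CCAAT box and, on the other strand, the core of the cell cycle homology region, and its 250 bases held 2 CCAAT boxes, 1 such core and no GC box. The GC box was present in 42.6% of 35116 RefSeq promoters of the same length, the CCAAT box in 32.0% and the cell cycle core in 13.3%. Counting any of its listed starts, a GC box was found in 6 of the 7 matched members, all but CDKN3. CDKN2A and CDKN2C have several listed starts, whereas the shares of RefSeq promoters count each promoter alone, so these are unlike measures. CDKN1B, CDKN2C, CDKN2D and CDKN3 held a CCAAT box, CDKN3 alone held the cell cycle core, and CDKN2C alone held the E2F-type motif, which 5.52% of all promoters held. No member held the TATA box, which was in 10.7% of all promoters. A match is a description of the letters and not evidence of binding.

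CDKN1B (ENSG00000111276, plus strand, chr12:12715058-12722371) encodes p27, whose amount is set largely by protein breakdown through SKP2. It had 54.1, 52.6 and 55.2 CPM in the vehicle-treated samples and 48.8, 51.4 and 50.5 CPM in the SCH-treated samples. Every SCH-treated sample was slightly below every vehicle-treated one, a separation that 62.4% of all tested genes also had. The fold was 0.931 (95% confidence interval 0.854 to 1.02), a log2 fold change of -0.10 with an SE of 0.060, which did not pass the test (edgeR adjusted p = 0.15). When samples were scaled by library size only, the log2 fold change was 0.00045, so no direction is given for it.

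CDKN1C (ENSG00000129757, minus strand, chr11:2883213-2885773) encodes p57, an imprinted gene active above all in embryonic tissues. It was the least abundant of the 6 detected members, with 96, 96 and 94 counts with vehicle and 182, 169 and 193 with SCH. These were 4.92, 5.35 and 5.29 CPM against 10.4, 9.07 and 10.1 CPM. The groups were well apart, with the lowest SCH-treated sample still far above the highest vehicle-treated one. The rise was 1.91-fold (95% confidence interval 1.59 to 2.28), a log2 fold change of 0.93 with an SE of 0.13 (edgeR adjusted p = 1.0e-06). With so few counts, counting error alone is 10.2% of a vehicle-treated sample's value and 7.43% of an SCH-treated one's, against a spread between replicates of 4.44% and 7.27%. The spread between replicates was thus no greater than counting error alone, and how it depends on depth was not tested.

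The INK4 genes fell into a detected pair and an undetected pair. CDKN2D (ENSG00000129355, minus strand, chr19:10566462-10569059), the gene of p19, had 32.6, 32.9 and 30.2 CPM with vehicle and 40.2, 36.2 and 41.8 CPM with SCH. All SCH-treated samples were higher, though SCH replicate 2 was closer to the vehicle-treated samples than the others were. The rise was 1.24-fold (95% confidence interval 1.11 to 1.37), with a log2 fold change of 0.31 and an SE of 0.072 (edgeR adjusted p = 0.00088). This size was exceeded by about as many tested genes as not, its percentile being 49.4, and it did not pass the test against a fold of 1.5.

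CDKN2C (ENSG00000123080, plus strand, chr1:50960745-50974633), the gene of p18, had 77.9, 75.9 and 70.9 CPM with vehicle and 72.8, 69.5 and 67.9 CPM with SCH. The groups overlapped, since SCH replicate 1 was above vehicle replicate 3. The log2 fold change was -0.10 with an SE of 0.058 and a 95% confidence interval of -0.22 to 0.02, and it did not pass the test (edgeR adjusted p = 0.16). The call depended on 1 library: without vehicle replicate 3 the log2 fold change was -0.13 and passed (edgeR adjusted p = 0.041), and when scaled by library size only its value was 0.0066.

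CDKN2A (ENSG00000147889, minus strand, chr9:21967753-21995301), which encodes p16 and, in another reading frame, p14ARF, and CDKN2B (ENSG00000147883, minus strand, chr9:22002903-22009363) had 0 counts in all 6 samples. A floor of 3 counts in a sample allows between 0.154 and 0.172 CPM, a limit that covers counting error only. Per length, CDKN2C in the same samples was at least 548 times the floor of CDKN2A and at least 514 times that of CDKN2B. With genes taken in the order of their start positions, the pair sat within 58 consecutive annotated genes, 23 of them protein-coding, that had no count in any sample. The first was SNORA30B, which starts at 20786927 within FOCAD, and the last was AL391117.1, which starts at 22703516 and whose span also holds the pseudogene CLIC4P1, with 7 to 13 counts in each sample. The run held the interferon genes of this cluster, KLHL9, DMRTA1 and also MTAP, the methylthioadenosine phosphorylase gene next to CDKN2A. The antisense gene CDKN2B-AS1, which shares 7.88% of the exonic bases of CDKN2A, was at 0 too. Of all genes in the table, 49.85% had no count in any sample, and of the 19951 protein-coding genes 17.95% had none.

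FOCAD (chr9:20658309-20995955), the nearest protein-coding gene with counts on the side of lower coordinates, had 53, 63 and 61 counts with vehicle and 59, 67 and 86 with SCH. TUSC1, the nearest on the other side, had 345, 365 and 298 with vehicle and 321, 307 and 349 with SCH. Both genes thus had reads in every sample. Homozygous loss of the CDKN2A region is a known property of MDA-MB-231 cells, stated here as background. Whether DNA is absent from these cells was not tested by RNA counts.

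**Figure D2:**
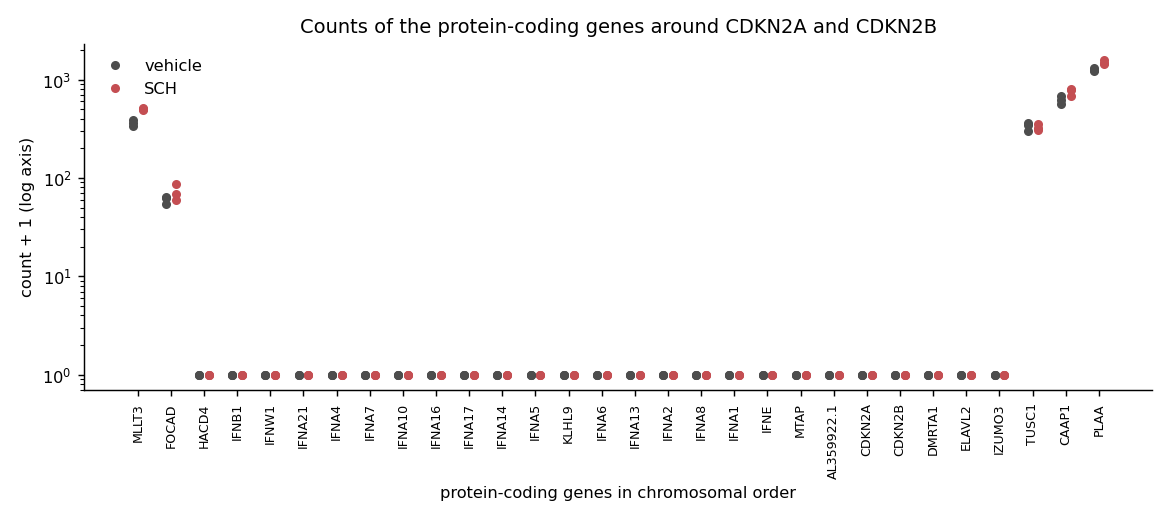
Counts plus 1 (y axis, log scale) of the protein-coding genes around CDKN2A and CDKN2B in chromosomal order (x axis, not to scale of distance), with vehicle-treated samples in grey and SCH-treated samples in red. The genes from HACD4 to IZUMO3 have no count in any of the 6 samples, whereas FOCAD has 53 to 86 counts and TUSC1 298 to 365.

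CDKN3 (ENSG00000100526, plus strand, chr14:54396849-54420218) was the only member that fell. It had 1275, 1146 and 1074 counts with vehicle and 554, 607 and 706 with SCH, or 65.4, 63.8 and 60.4 CPM against 31.8, 32.6 and 37.1 CPM. The highest SCH-treated sample, replicate 3, was far below the lowest vehicle-treated one. The level fell 1.87-fold, with a log2 fold change of -0.90, an SE of 0.069 and a 95% confidence interval of -1.04 to -0.76 (edgeR adjusted p = 1.1e-10). Its absolute size exceeded that of 88.8% of the tested genes. An exact two-sided permutation test of 3 samples against 3 cannot go below p = 0.1, and CDKN1A, CDKN1B, CDKN1C, CDKN2D and CDKN3 each gave that value.

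**Figure D3:**
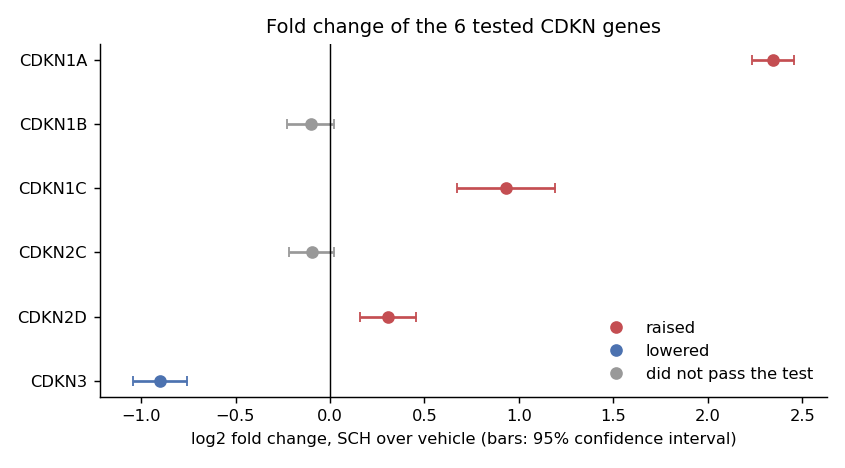
Log2 fold change of SCH over vehicle (x axis) of the 6 tested CDKN genes (y axis) with 95% confidence intervals from the edgeR fit on 3 samples per group. The intervals of CDKN1A, CDKN1C and CDKN2D lie above 0, that of CDKN3 below 0, and those of CDKN1B and CDKN2C include 0.

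Levels of different members were compared per length, as deposited FPKM. With vehicle, CDKN3 (33.3 ± 1.36 FPKM, SD, n = 3) and CDKN1A (32.8 ± 2.52) were highest and their samples overlapped. CDKN2C (21.8 ± 1.06) and CDKN2D (20.5 ± 0.962) followed and also overlapped, CDKN1B (18.6 ± 0.431) lay below both, and CDKN1C (2.02 ± 0.0894) was lowest. With SCH, CDKN1A (167 ± 2.84 FPKM) stood alone at the top, above CDKN2D (25.5 ± 1.83), CDKN2C (20.5 ± 0.804), CDKN3 (17.9 ± 1.47), CDKN1B (17.4 ± 0.413) and CDKN1C (3.87 ± 0.285). CDKN3 and CDKN1B then overlapped, so the gene that shared the first place with vehicle was no longer distinct from the second lowest detected member. Among 12423 tested protein-coding genes ranked by mean FPKM, CDKN1A moved from place 1446 to place 159 and CDKN3 from place 1427 to place 2770.

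The FPKM summed over the family was 130.4, 133 and 124 in the vehicle-treated samples and 249, 251 and 256 in the SCH-treated samples. All SCH-treated sums were above all vehicle-treated sums, by a ratio of 1.96 of the means (exact two-sided permutation p = 0.1, the smallest possible). The share of CDKN1A in the sum was 25.4% ± 1.30 (SD, n = 3) with vehicle and 66.3% ± 0.846 with SCH. Without CDKN1A the sum was 96.2 ± 2.996 FPKM with vehicle and 85.1 ± 2.69 with SCH, lower in each SCH-treated sample. Of these genes, CDKN3 differed most by mean FPKM (-15.4), beside CDKN2C (-1.30) and CDKN1B (-1.20), whereas CDKN2D (4.97) and CDKN1C (1.85) were higher. The scale within the FPKM values was 0.995 to 1.01 with vehicle and 0.937 to 0.941 with SCH. Its part in these sums was not tested. The share of CDKN3 went from 25.8% ± 0.545 to 7.08% ± 0.476. The INK4 sum, made of CDKN2C and CDKN2D alone, was 42.3 ± 1.99 FPKM against 46.0 ± 1.99, with the lowest SCH-treated value of 43.73 just above the highest vehicle value of 43.66.

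**Figure D4:**
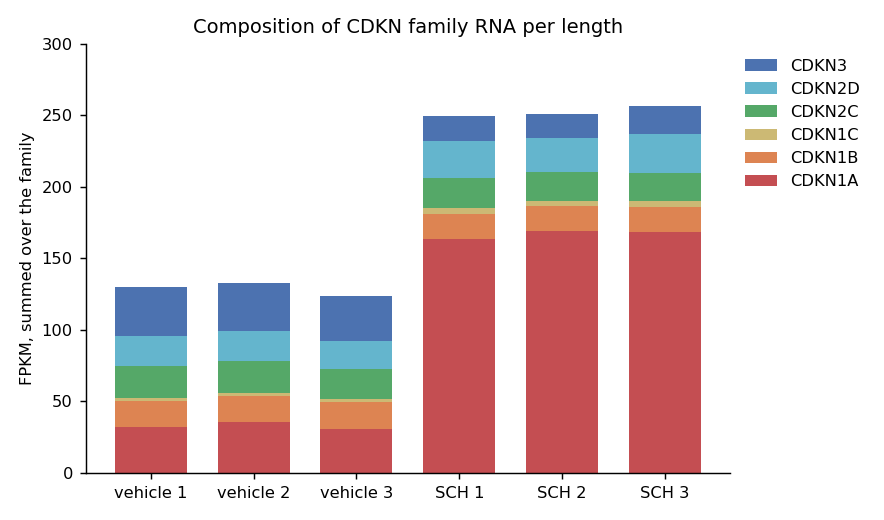
Stacked FPKM (y axis, linear from 0) of the 6 detected CDKN genes in each of the 6 samples (x axis). The total is 124 to 133 FPKM with vehicle and 249 to 256 with SCH, and CDKN1A, the lowest segment, makes up most of the total in the SCH-treated samples.

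Ratios of members within a sample do not depend on the scaling between samples. The FPKM of CDKN1A was 1.71, 1.97 and 1.63 times that of CDKN1B with vehicle and 9.68, 9.51 and 9.70 times with SCH. Relative to CDK2, the kinase that p21 is best known to inhibit, CDKN1A RNA was 1.00, 1.06 and 1.02 times as abundant with vehicle and 5.17, 5.44 and 5.44 times with SCH. The family sum over the sum of CDK1, CDK2, CDK4 and CDK6 was 0.938, 0.938 and 0.908 with vehicle and 2.04, 2.08 and 2.06 with SCH. Within the kinase sum, CDK4 averaged 57.6 FPKM with vehicle and 40.8 with SCH. Its value is uncertain, since 43.2% of its exonic bases are shared with TSPAN31 on the other strand. In each ratio the groups were far apart and the spread among replicates small. These are ratios of RNA and say nothing of protein.

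Among the CDKs and cyclins that the inhibitors bind, 11 of 14 genes changed, 4 raised and 7 lowered, and the median over the list was a log2 fold change of -0.20. CDK1 and CDK2, the kinases of S phase and mitosis, had log2 fold changes of 0.08 and -0.03 and did not pass (edgeR adjusted p = 0.21 and 0.62). Without vehicle replicate 3, CDK1 passed at 0.15 (edgeR adjusted p = 0.013), and leaving out single libraries moved it between 0.040 and 0.15. It also passed when scaled by library size only, at 0.19 (edgeR adjusted p = 0.0070). CDK4 had 194, 201 and 172 CPM with vehicle and 134, 130.3 and 136 with SCH, and CDK6 had 101, 102 and 118 against 80.6, 88.1 and 81.1. Both partners of the INK4 proteins were thus lower in all SCH-treated samples, with log2 fold changes of -0.50 and -0.36, although 43.2% of the exonic bases of CDK4 are shared with TSPAN31 on the other strand, which makes its value uncertain.

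The D-type cyclins, which activate CDK4 and CDK6, went different ways. CCND1 had 660.2, 677 and 675 CPM with vehicle and 395, 378 and 360.1 with SCH, a log2 fold change of -0.83 with an SE of 0.047 (edgeR adjusted p = 6.9e-13). CCND3 had 216, 214 and 213 CPM with vehicle and 294, 278 and 278 with SCH, a log2 fold change of 0.40 with an SE of 0.047 (edgeR adjusted p = 1.2e-07). Neither gene's groups overlapped, and CCND2, at 0.843 CPM with vehicle and 0.941 with SCH, did not pass. Per length, the 3 D-type cyclins together were 170 ± 1.57 FPKM with vehicle and 123 ± 5.27 with SCH.

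The E-type cyclins, which activate CDK2 at the entry to S phase, rose, with log2 fold changes of 0.68 for CCNE1 and 0.67 for CCNE2. For CCNE2, 37.1% of the exonic bases are shared with other genes. Of the later cyclins, CCNA2 and the B-type genes fell. CCNA2 was at 222, 221 and 241 CPM with vehicle and 136, 140 and 142 with SCH (log2 fold change -0.72). CCNB2 fell by 0.84 on the log2 scale and CCNB1, the mitotic cyclin of CDK1, fell by 1.55. CCNA1, the A-type cyclin of the germ line, named after its values were seen, had few counts, with 32, 37 and 31 with vehicle and 86, 95 and 101 with SCH. Its log2 fold change of 1.49 was the greatest rise of the list.

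Of the genes that degrade, hold or tag the inhibitors, 15 of 18 changed, 6 raised and 9 lowered (median log2 fold change -0.11). SKP2, which marks p27 and p21 for breakdown, had 36.7, 38.9 and 44.9 CPM with vehicle and 19.8, 21.8 and 21.5 with SCH. That was a log2 fold change of -0.93 with an SE of 0.082 (edgeR adjusted p = 1.1e-09), and the groups did not overlap. Its cofactor CKS1B had a log2 fold change of -0.12 (edgeR adjusted p = 0.036), a call that 8 of 16 alternatives ended, with values between -0.16 and -0.021, and the related CKS2 fell by 0.63. CDC20, the activator of the anaphase-promoting complex, had 466, 469 and 432 CPM against 162, 161 and 160.5, the greatest fall of the list. Raised were RNF123 (0.52), a ubiquitin ligase of p27, MKRN1 (0.38), a ubiquitin ligase of p21, SKP1 (0.31), the adaptor of SKP2, and PCNA (0.12), whose call 4 of 16 alternatives ended.

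Of 26 known regulators of the CDKN genes, 21 were tested, of which 7 rose, 6 fell and 8 did not pass, with a median log2 fold change of 0.0039. TP63, TP73, TBX2, TBX3 and TWIST1 had too few counts. EGR1, an immediate early transcription factor, had 32.6, 30.7 and 29.2 CPM with vehicle and 118, 132 and 100.0 with SCH, a log2 fold change of 1.92 with an SE of 0.080 (edgeR adjusted p = 3.0e-15). FOXO1 (0.74), a forkhead factor that activates CDKN1B, and RING1 (0.53), a Polycomb protein, rose as well. FOXO1 was at 0.794 FPKM with vehicle and 1.34 with SCH, and its value was 0.38 on the log2(FPKM + 1) scale, which understates the change of low genes. MYC, which represses CDKN1A, fell from 244, 244 and 238 CPM to 147.5, 165 and 137 CPM, a log2 fold change of -0.69. ID1, an inhibitor of helix-loop-helix factors, fell by 0.77 and EZH2, a Polycomb methyltransferase, by 0.14, a call that 7 of 16 alternatives ended. Without vehicle replicate 2 or without SCH replicate 2, 8 in place of 13 regulators passed.

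Of 21 pocket protein, E2F and DREAM complex genes, which act downstream of the CDKs, 12 changed, 4 raised and 8 lowered (median log2 fold change -0.05). RB1, the retinoblastoma gene, had a log2 fold change of 0.15 (edgeR adjusted p = 0.037) and its relative RBL2 one of -0.19 (edgeR adjusted p = 0.049), calls that 8 and 12 of 16 alternatives ended. RBL1 and E2F1 did not pass (-0.05 and -0.04). E2F4 (-0.49), E2F5 (-0.995), E2F2 (-0.26) and E2F3 (-0.18) fell, whereas E2F6 (0.08), E2F7 (0.08) and E2F8 (0.14) did not pass. The histone chaperone RBBP4 (-0.76) and FOXM1 (-0.32), the activator of mitotic genes, fell as well. LIN54, the DNA-binding subunit of DREAM, rose by 0.46 and TFDP2, a partner of the E2F proteins, by 0.17, a call that 9 of 16 alternatives ended. Without SCH replicate 2, 6 in place of 12 of these genes passed.

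The share of changed genes was 78.6% of the partners, 83.3% of the turnover genes, 61.9% of the regulators and 57.1% of the pocket protein genes, beside 58.7% of all tested genes. The split by direction moved with the scaling. Scaled by library size only, 5 partners were raised and 7 lowered, 7 turnover genes raised and 7 lowered, 9 regulators raised and 2 lowered, and 8 pocket protein genes raised and 5 lowered, and over all genes 5519 were raised and 3295 lowered in place of 4318 and 4332. The medians of the lists moved with it, to -0.094 for the partners, -0.0022 for the turnover genes, 0.11 for the regulators and 0.052 for the pocket protein genes, the last with its sign turned, so no direction is given for these medians. Upper quartile factors moved the lists the other way, with 3 turnover genes raised and 10 lowered, 5 regulators raised and 7 lowered, and 2 pocket protein genes raised and 8 lowered, while the partners kept 4 raised and 7 lowered in number, and the median of the regulators became -0.028. The 3 raised and 1 lowered members of the family were the same in number with library size only.

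**Figure D5:**
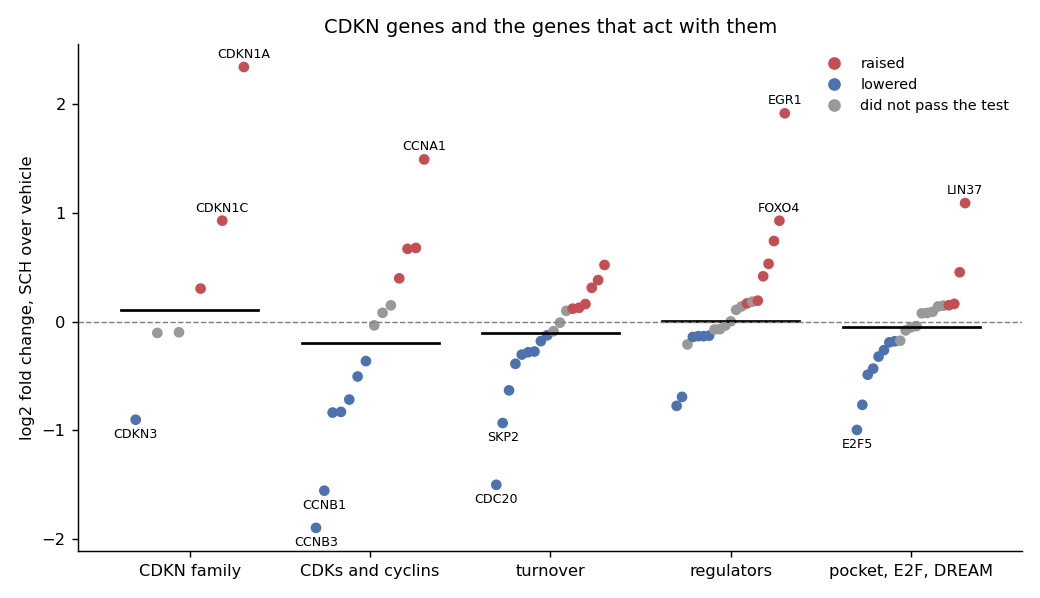
Log2 fold change of SCH over vehicle (y axis) of the tested genes of the CDKN family and of the lists of CDKs and cyclins, turnover genes, regulators, and pocket protein, E2F and DREAM genes (x axis), each point a gene, coloured by its edgeR call. Black lines are list medians, the dashed line is the median of all tested genes, and the genes farthest from 0 are labelled, with CDKN1A at 2.34 the highest and CCNB3, which has few counts, the lowest at -1.90.

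For each changed member, the genes with the nearest profile over the 6 samples were sought among 10713 genes whose counts averaged 100 or more, by the root mean square difference of log2 CPM from the vehicle mean. Nearest to CDKN1A were RRAD, a Ras-related GTPase, CLU, which encodes the secreted chaperone clusterin, and NR4A1, an orphan nuclear receptor, at distances of 0.084, 0.088 and 0.14. Nearest to CDKN1C were RAB2B, CDR2L and KDM6B, a histone H3 demethylase (0.049, 0.055 and 0.062). Nearest to CDKN2D were CMC2, RNASEH2C, a subunit of a nuclease for RNA in DNA, and TSPAN17 (0.018, 0.028 and 0.030). Nearest to CDKN3 were PHF19, a Polycomb-associated protein, MAGOHB, a part of the exon junction complex, and TANGO6 (0.029, 0.036 and 0.042). The profile includes the difference between the groups, so a near profile includes a like fold change.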

How the data were processed

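For the 6 samples the authors deposited unnormalized read counts of each gene, and FPKM values per sample. The FPKM values equalled the count divided by gene length and total, times a scale by sample. That scale was 0.995 to 1.01 with vehicle and 0.937 to 0.941 with SCH, so FPKM compared between the groups carries it. The submitters' processing notes name CASAVA 1.8, HISAT2 2.0.5, featureCounts 1.5.0-p3 and DESeq2 1.20.0 without their roles or settings. Whether strand was used in counting is not given in the sources used here. Among other named genes, VIM (24.4%), CDK2 (16.8%) and RNF123 (15.7%) also share exonic bases with other genes. All 58735 genes matched GENCODE release 29 (GRCh38) in start and end, and no 2 libraries were copies.

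SCH was compared with vehicle by the quasi-likelihood test of edgeR 4.0.16 in R 4.3.3 (TMM, filterByExpr, no covariates, Benjamini-Hochberg). The SE is the absolute log2 fold change over the square root of F, and the biological coefficient of variation was 5.17%. CPM values use the TMM library sizes. Alternatives used RLE, upper quartile or library size scaling, other filters on low counts, DESeq2 1.42.0, limma 3.58.1 on log2(FPKM + 1) and log2(FPKM + 0.1), glmTreat, a replicate block and each replicate left out. Counting error is 1 over the square root of the mean count. Scripts were tested on simulated data. Summaries and plots used Python 3.11.15.

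The members and lists were chosen with earlier results of these data known. Genes named were all 8 members, 20 set partners and regulators, in each list up to 3 raised and 3 lowered genes with the largest changes at a mean count of at least 100, and the 3 nearest profiles of each changed member. A gene that this rule names is not reported here. CCNA1, CCNB3, CCND2, E2F2, E2F3, E2F6, E2F7, E2F8 and the genes near CDKN2A were named after their values were seen.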

Additional observations from a re-analysis of the deposited data

How the results depend on the processing

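The rises of CDKN1A (log2 fold change 2.31 to 2.45) and CDKN1C (0.69 to 1.03) and the fall of CDKN3 (-0.96 to -0.80) kept direction and threshold under all 16 alternatives. CDKN2D (0.27 to 0.41) missed the threshold only against a fold of 1.5 (0.31, edgeR glmTreat adjusted p = 1.00). Against that fold, 1539 of all genes changed (702 raised, 837 lowered), with 6 partners, 2 turnover genes, 2 regulators and 2 pocket protein genes. With library size alone the sign turned for CDKN1B (0.00045), CDKN2C (0.0066), CDK2 (0.071), RBL1 (0.052) and E2F1 (0.064), none past the threshold, and the median of all genes moved to 0.099. Leaving out 1 library gave -0.13 to -0.062 for CDKN2C (passed without vehicle replicate 3), -0.067 to 0.011 for CDK2 (positive without vehicle replicate 2) and -0.093 to 0.0092 for RBL1 (positive without vehicle replicate 3), 1 to 2 lowered members, 8 to 13 changed regulators and 6 to 13 changed pocket protein genes. The log2 ratio of the family sum was 0.97 by FPKM and 1.09 by TPM from the counts. Of 36 list genes named by rule, 26 crossed the threshold or turned sign under at least 1 alternative, 15 of them only against the fold of 1.5, a stricter test. With the replicate number as a block, 8705 genes and the same number of members (4) passed. Same-numbered samples deviated together with r of 0.046, -0.022 and 0.022, within the -0.084 to 0.066 of differently numbered ones. Whether same-numbered samples were handled as pairs is not given in the sources used here. The cause of the differences between alternatives was not tested. For CDKN1C the spread between replicates was no greater than counting error. Depth sets the floor given for CDKN2A and CDKN2B, and also the counting error of genes with few counts such as CDKN1C. The cause of the zeros of CDKN2A and CDKN2B was not tested.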
